A study of Mus musculus with 13 samples.

Results

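Of 1053 H3K27me3 peaks listed for mouse embryonic fibroblasts that express H3.1K27M, 199 had less than 20% of their bases inside any peak listed for fibroblasts that express H3.3K27M. These 199 peaks, 18.9% of the H3.1K27M list (95% exact binomial interval 16.6 to 21.4%), are described here and are called barely covered peaks or members. They were chosen by the measured overlap of the 2 lists, so that overlap, the distance to the other list and peak width are descriptions and no finding of their own. The 854 remaining peaks of that list are called shared peaks. Both cell groups carried the mutant histone from a stably integrated lentivirus and were grown in medium with serum. The labels name neither the promoter of the transgene nor its level, and no expression was measured, so the labelled cell type could not be checked against marker genes. Each group had 2 replicate samples but 1 peak list, and no label says whether the replicates were pooled. There was therefore no spread between replicates and no test between the groups, and every comparison below is a description of 2 lists.

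H3K27me3 is trimethylation of lysine 27 of histone H3. It is placed by Polycomb repressive complex 2 (PRC2), whose catalytic subunit is EZH2, and it is read by further Polycomb complexes that keep developmental genes silent in cells that do not use them. PRC2 also binds the mark it makes, which stimulates the enzyme and lets the mark spread from sites of recruitment into broad domains. In fibroblasts such domains typically cover genes of other lineages. Changing lysine 27 to methionine (K27M) turns the histone tail into an inhibitor of PRC2, and cells with K27M lose much of their H3K27me3 while part of it persists at strong recruitment sites. H3.1 is built into chromatin mainly as DNA is replicated, and H3.3 is built in at all stages of the cell cycle, mainly at active genes and regulatory elements.

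The division of the H3.1K27M list was nearly all or none. Of its 1053 peaks, 198 (18.8%) had no base in common with the H3.3K27M list, and 617 lay wholly inside it. A further 238 peaks were covered in part, and only 4 of these had less than 40% of their bases covered. A single peak lay between 0 and 20%. It was the 7.0 kb peak on chromosome 12 from 113369201 to 113376199 (build mm9, as are all positions here), and 1199 of its bases, or 17.1%, fell in an H3.3K27M peak of 1.4 kb. All other barely covered peaks were at 0. The peaks just over the limit were an 11.4 kb peak on chromosome 4 from 150499001 to 150510399 with 24.6% covered, a 3.2 kb peak on chromosome 15 from 85650201 with 31.2%, a 6.4 kb peak on chromosome 1 from 134633801 with 34.4%, a 5.4 kb peak on chromosome 5 from 36100401 with 40.7% and a 12.2 kb peak on chromosome 11 from 118427601 with 41.0%. In each of these 5 the H3.3K27M peak lay wholly within the H3.1K27M peak. The reverse comparison was less sharply divided. Of the 1192 H3.3K27M peaks, 357 (29.9%) were under 20% covered by H3.1K27M peaks and 354 (29.7%) were at 0, but 48 were between 0 and 40%.

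**Figure D1:**
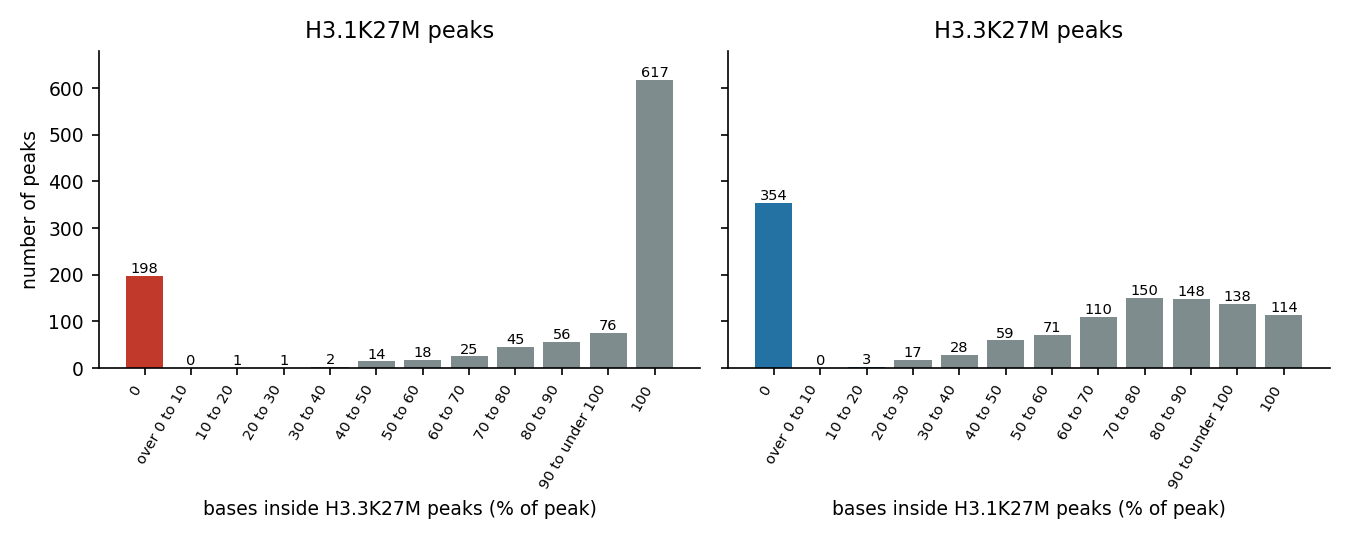
Number of peaks (vertical axis) by the percent of their bases that lie inside peaks of the other list (horizontal axis), for the H3.1K27M list on the left and the H3.3K27M list on the right; coloured bars are the classes under 20%. In the H3.1K27M list 198 peaks stand at 0 and 617 at 100%, with 4 peaks between 0 and 40%.

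The barely covered peaks were narrow. They covered 776 kb in all, 8.87% of the length of the H3.1K27M list. Their median width was 3.2 kb (95% exact interval of the median 3.0 to 3.4 kb, quartiles 2.2 and 4.8 kb), against 6.2 kb (6.0 to 6.8 kb, quartiles 4.0 and 11.0 kb) for shared peaks. Both groups reached down to 0.6 kb, while the widest member was 22.6 kb and the widest shared peak 82.2 kb. The share of H3.1K27M peaks that were barely covered fell with width, from 47 of 81 peaks under 2 kb (58.0%) to 87 of 274 from 2 to 4 kb (31.8%), 54 of 353 from 4 to 8 kb (15.3%), 9 of 215 from 8 to 16 kb (4.19%) and 2 of 130 at 16 kb or more (1.54%). The H3.3K27M list showed the same order, from 20 of 30 peaks under 2 kb (66.7%) to 12 of 178 at 16 kb or more (6.74%). Its barely covered peaks were wider than those of H3.1K27M, with a median of 5.0 kb (4.6 to 5.2 kb), and 40 of the 357 (11.2%) reached 10 kb against 6 of the 199 (3.02%). The H3.3K27M list was also wider as a whole, with a median of 7.2 kb over all peaks against 5.6 kb. Of all its peaks 364 of 1192 (30.5%) reached 10 kb, against 257 of 1053 (24.4%) in the H3.1K27M list. Width and overlap come from the same intervals, so these values carry no test. The exact intervals treat peaks as independent and cover counting error only.

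**Figure D2:**
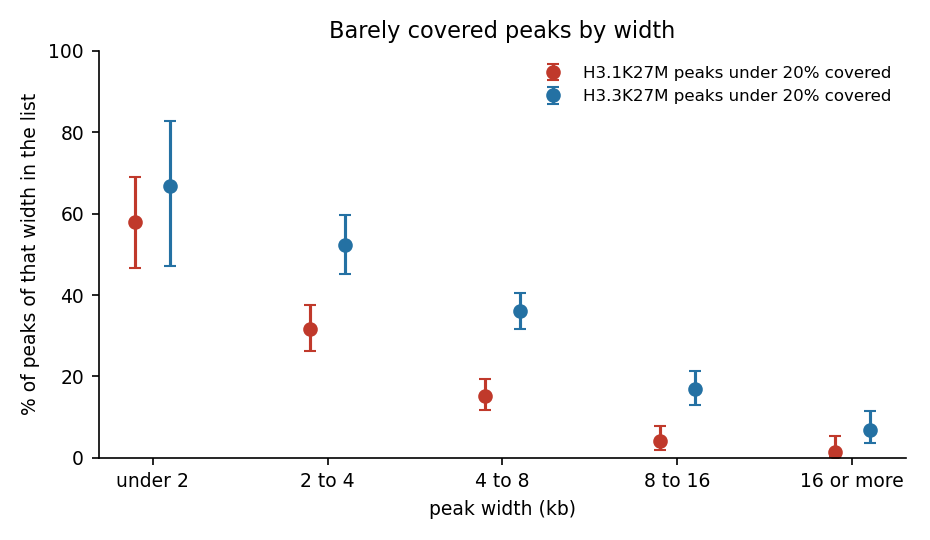
Percent of all peaks of a given width that were under 20% covered by the other list (vertical axis), by peak width in kb (horizontal axis); points are shares and bars are 95% exact binomial intervals over peaks. The H3.1K27M share falls from 58.0% under 2 kb to 1.54% at 16 kb or more, and the H3.3K27M share from 66.7% to 6.74%.

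Few barely covered peaks lay close to a peak of the other list. Apart from the peak on chromosome 12, none lay within 1 kb of an H3.3K27M peak, 3 lay 1 to 5 kb away and 15 lay 5 to 20 kb away. Another 47 were 20 to 100 kb away, 94 were 100 kb to 1 Mb away and 39 (19.6%) were more than 1 Mb from any H3.3K27M peak. The median distance was 212 kb (163 to 288 kb, quartiles 54.3 and 743 kb). For the barely covered H3.3K27M peaks the median distance to the other list was longer, 529 kb (425 to 647 kb), and 120 of 357 (33.6%) were more than 1 Mb away. The nearest H3.3K27M peak was in most cases a shared one: for 159 of the 199 (79.9%, interval 73.7 to 85.2%) it overlapped some other H3.1K27M peak or, on chromosome 12, the member itself. Most H3.3K27M peaks are of this kind, 838 of all 1192 (70.3%). In the reverse direction the nearest H3.1K27M peak overlapped the H3.3K27M list for 310 of 357 barely covered H3.3K27M peaks (86.8%). The trait is therefore not particular to the members. Barely covered peaks of the 2 lists seldom stood side by side. No H3.1K27M member had a barely covered H3.3K27M peak within 5 kb, 2 had one within 20 kb and 12 (6.03%) had one within 100 kb. For shared H3.1K27M peaks these numbers were 7 of 854 (0.82%) within 5 kb, 32 (3.75%) within 20 kb and 91 (10.7%) within 100 kb. Such neighbours were thus few for shared peaks too, and the exact intervals of the shares overlap at each of these distances.

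Some members lay next to domains called in both lists. Shared H3.1K27M peaks lay within 100 kb on both sides of 10 members and on a single side of 48, and 141 members had none that near. For the 357 barely covered H3.3K27M peaks the same counts were 9, 57 and 291. For the 58 members with such a neighbour, the nearest shared peak was wider than the member in 46 cases, narrower in 11 and equal in 1, with median widths of 8.3 kb for the neighbour and 4.6 kb for the member. Members were narrower than shared peaks over the whole list, with medians of 3.2 and 6.2 kb. A wider shared neighbour is therefore no finding of its own. Of the members without overlap, the 5 closest to the H3.3K27M list are named here, after their values were seen. Their gaps to that list were 3.2 and 4.0 kb on chromosome 18 and 4.6 kb on chromosome 11 from 115192201. The others were 5.6 kb on chromosome 7 from 51855001 and 5.8 kb on chromosome 2 from 151916601. Each of these 5 members faced a shared H3.3K27M peak of 7.0 to 14.4 kb.

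The widest member lay on chromosome 8 from 125224801 to 125247399, 22.6 kb wide. A shared H3.1K27M peak of 35.0 kb, of which 53.1% was covered, stood 4.4 kb from it, and the nearest H3.3K27M peak, 21.2 kb wide, stood 10.4 kb away. The next 2 were neighbours on chromosome 17, 16.2 kb wide from 36292601 to 36308799 and 13.6 kb wide from 36313801 to 36327399. Here the nearest H3.3K27M peak, 5.2 kb wide and itself without H3.1K27M cover, was 41.8 and 63.0 kb away. On chromosome 16 an 11.8 kb member from 91167401 to 91179199 stood 31.4 kb from a domain called in both lists, with widths of 33.8 kb in H3.1K27M and 34.2 kb in H3.3K27M cells. An 11.4 kb member on chromosome 12 from 88322401 to 88333799 was the most isolated of this group from the other list, at 553 kb, although another member of 3.0 kb lay 32.8 kb away.

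Of the 5 members that complete the 10 widest, 3 lay towards the end of chromosome 2. They were 11.0 kb wide from 180229201, 9.4 kb from 164897601 and 8.8 kb from 152850001, with the nearest H3.3K27M peak at 104, 26.8 and 26.2 kb. A 9.2 kb member on chromosome 17 from 57200601 was 76.4 kb from the H3.3K27M list, and an 8.8 kb member on chromosome 4 from 136445201 was 39.6 kb from it. All 10 had another H3.1K27M peak within 100 kb, and for 4 of them that nearest peak was also a member.

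The members farthest from the H3.3K27M list were narrow. A 0.6 kb peak on chromosome 1 from 104524601 to 104525199 was 9.52 Mb from the nearest H3.3K27M peak and about as far from any other H3.1K27M peak (9524 kb). It was also the narrowest member. Peaks of 1.2 kb and 3.4 kb on chromosome 8, from 113916401 and 112691001, were 6.85 and 5.62 Mb away and had each other as nearest H3.1K27M peak, at 1222 kb. A 2.2 kb peak on chromosome 6 from 137199801 (5.32 Mb) and a 1.4 kb peak on chromosome 3 from 82707401 (4.87 Mb) followed. These 5 measured 0.6 to 3.4 kb, under or near the members' median of 3.2 kb.

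Barely covered peaks of 4 kb or wider had another H3.1K27M peak within 100 kb more often than shared peaks of like width. Among peaks of 4 to 8 kb, 33 of 54 members (61.1%, interval 46.9 to 74.1%) had another H3.1K27M peak within 100 kb, against 97 of 299 shared peaks (32.4%, 27.2 to 38.1%). From 8 to 16 kb this held for 9 of 9 members (interval 66.4 to 100%) and 82 of 206 shared peaks (39.8%, 33.1 to 46.8%), and both members of 16 kb or more had such a neighbour. Narrower members did not show this pattern: the shares were 26.4% of 87 members against 22.5% of 187 shared peaks from 2 to 4 kb, and 27.7% of 47 against 29.4% of 34 under 2 kb, with overlapping intervals. Over all widths the shares were 80 of 199 (40.2%, 33.3 to 47.4%) and 287 of 854 (33.6%, 30.4 to 36.9%), which also overlap. A neighbour of either group was counted, so members that lie side by side count each other, as shared peaks do. The intervals treat such peaks as independent. The rule did not use distances within the H3.1K27M list, but peaks of 1 list are not replicates and the difference was not tested.

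**Figure D3:**
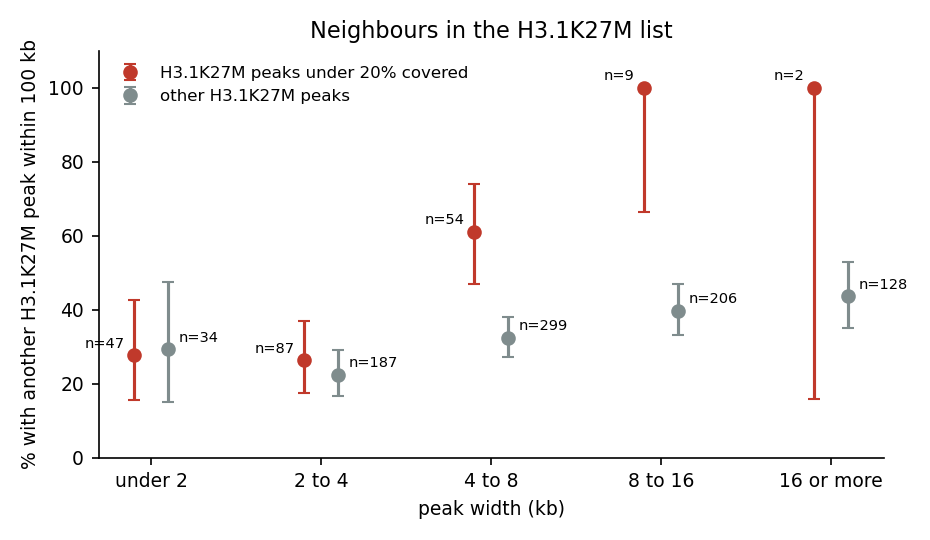
Percent of H3.1K27M peaks with another H3.1K27M peak within 100 kb (vertical axis), by peak width in kb (horizontal axis), for the 199 barely covered and the 854 shared peaks; bars are 95% exact binomial intervals and n is the number of peaks. The groups lie together under 4 kb and apart from 4 to 16 kb (61.1% against 32.4%, and 9 of 9 against 39.8%).

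Some members followed each other along the chromosome. Members were 18.9% of the list, so some neighbours are members in any order, and whether the runs exceed that was not tested. Of the 199, 116 stood alone between shared peaks of the H3.1K27M list, 54 formed 27 pairs, and 29 formed 9 runs of 3 or 4. Seen from single peaks, the nearest H3.1K27M peak was a member for 52 of 199 members (26.1%, interval 20.2 to 32.8%) and for 144 of 854 shared peaks (16.9%, 14.4 to 19.5%). The H3.3K27M list showed the same order. There the nearest peak of the list was barely covered for 125 of 357 barely covered peaks (35.0%) and 228 of 835 others (27.3%).

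Of the 9 runs, 5 were compact, with spans from 19.4 to 158 kb. On chromosome 17 from 36280801 to 36327399, 3 members of 3.2, 16.2 and 13.6 kb lay within 46.6 kb, with no other H3.1K27M peak within 673 kb. On one side of this run stood 2 H3.3K27M peaks of 6.8 and 5.2 kb that were barely covered themselves. The tightest run lay on chromosome 8 from 126094201 to 126113599, where members of 2.6, 0.8 and 2.4 kb lay within 19.4 kb. A 3.0 kb peak that was identical in the lists followed, and beyond it another member of 6.6 kb. On chromosome 4 from 136445201 to 136471199, members of 8.8, 4.2 and 5.6 kb preceded a domain of 30.2 kb in H3.1K27M and 33.4 kb in H3.3K27M cells.

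Chromosome 5 held the remaining 2 compact runs. From 120728601 to 120851599, 4 members of 3.8, 4.2, 1.8 and 7.0 kb led up to a pair of domains called in both lists, the larger of them 18.0 kb in H3.1K27M and 29.8 kb in H3.3K27M cells. From 37481001 to 37638999, members of 2.4, 3.4 and 7.2 kb were spread over 158 kb with no H3.3K27M peak among them. The other 4 runs were loose, with spans of 310 kb on chromosome 8 from 128516201, 851 kb on chromosome 6 from 113143201, 1.13 Mb on chromosome 2 from 172996401 and 5.08 Mb on chromosome 4 from 101221401. Only the last of these had an H3.3K27M peak within it, 7.2 kb wide and without H3.1K27M cover.

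**Figure D4:**
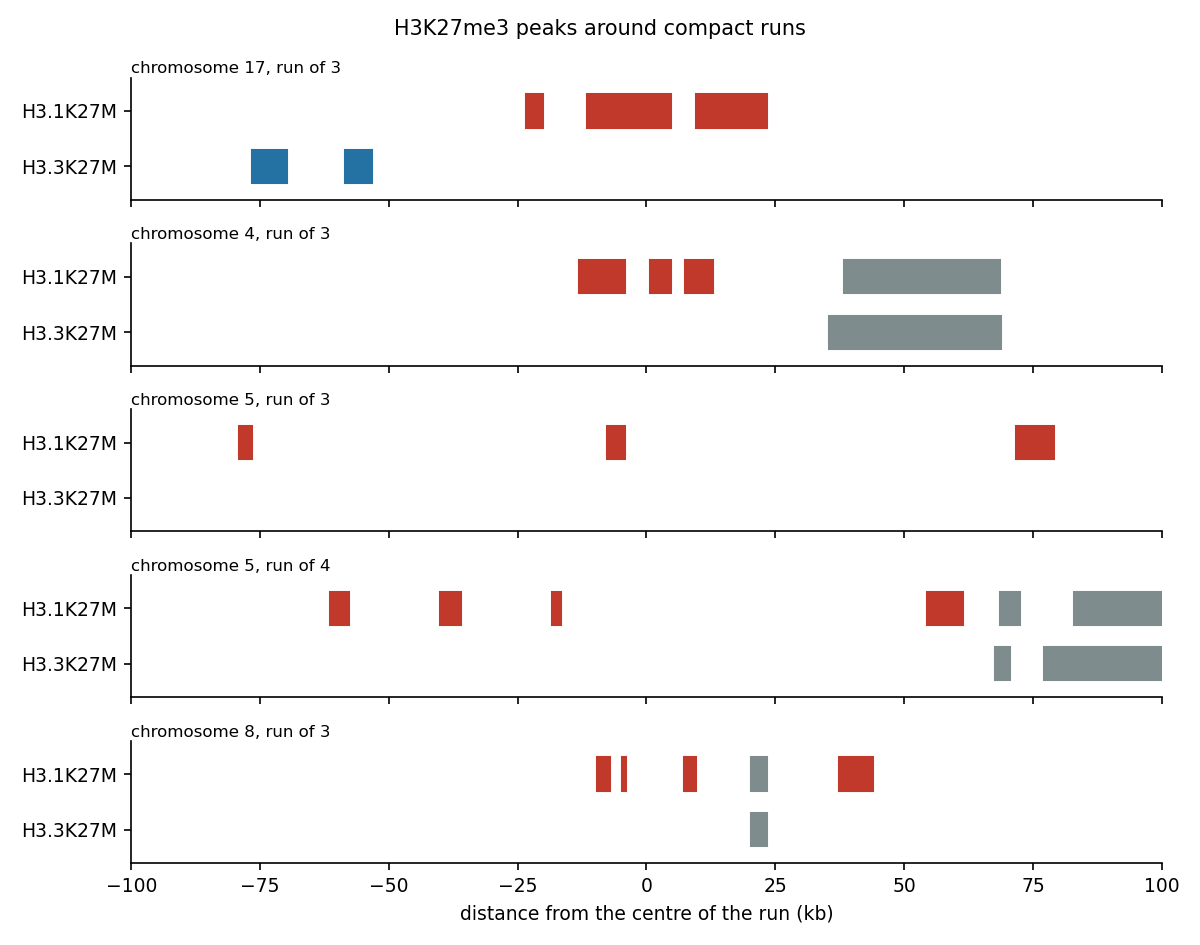
Peaks of the H3.1K27M list (upper row of each panel) and the H3.3K27M list (lower row) around the 5 compact runs, by distance in kb from the centre of the run; red and blue boxes are peaks under 20% covered by the other list and grey boxes are all others. No H3.3K27M peak lies opposite a red box, which the rule nearly fixes in advance. Domains called in both lists stand to the right of the runs on chromosomes 4, 5 (run of 4) and 8.

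In shared regions near the members, the surplus of width in the H3.3K27M list was smaller than in shared regions elsewhere. The rule favours this direction in advance. An H3.3K27M peak that spread over a neighbouring H3.1K27M peak would have covered it, and that peak would not be a member. Counting regions in which a single peak of each list overlapped, width in H3.3K27M cells was divided by width in H3.1K27M cells. The log2 of this quotient had a median of 0.08 (exact interval 0.00 to 0.15) in the 72 regions within 100 kb of a member and 0.35 (0.31 to 0.40) in the 734 others. The H3.3K27M peak was the wider one in 44 of the 72 (61.1%) and in 583 of the 734 (79.4%). Regions near members went both ways, from -2.03 to 1.37 on the log2 scale. Without regard to direction, the median absolute log2 ratio was 0.29 (0.19 to 0.38) near members and 0.44 (0.39 to 0.48) elsewhere. Near members the median widths were 10.1 kb in H3.1K27M and 9.5 kb in H3.3K27M cells, and elsewhere 6.0 and 8.2 kb. Regions near members were thus broader in the H3.1K27M list, and the comparison was repeated within 4 groups of nearly equal number by mean log2 width. From the narrowest to the broadest group the median ratio near members was 0.07, 0.09, 0.06 and 0.08 (13, 7, 25 and 27 regions) and elsewhere 0.43, 0.47, 0.31 and 0.26. The intervals overlapped in the 2 narrower groups and not in the 2 broader ones, where they were -0.38 to 0.17 against 0.24 to 0.40 and 0.01 to 0.19 against 0.21 to 0.31.

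Crowding of shared peaks was looked at in the same way. Where another shared peak lay within 100 kb, the median was 0.02 near members (-0.23 to 0.10, 45 regions) and 0.29 away from them (0.21 to 0.45, 170 regions). Where none did, it was 0.15 (0.00 to 0.34, 27 regions) and 0.36 (0.32 to 0.42, 564 regions), with intervals that overlap. On 8 chromosomes at least 3 regions lay near members, and on all 8 their median was below that of the other regions. Chromosomes 1 and 13 among them had only 3 such regions each. Where fewer lay near members, the value was lower near them on chromosomes 7, 12, 16 and 17. It was higher on chromosomes 14 (0.44 against 0.29) and 15 (0.138 against 0.132), with 1 region near members on each. Nearness to a barely covered H3.3K27M peak went with no such gap, with medians of 0.31 (0.19 to 0.45) in the 75 regions within 100 kb of one and 0.33 (0.29 to 0.37) in the 731 others. Among the 72 regions near members, the lowest ratio was that of the peak on chromosome 4 from 150499001 mentioned above, 11.4 kb against 2.8 kb (log2 ratio -2.03). It lay 11.4 kb from a member. It was followed among these 72 by regions on chromosome 2 from 180117201 (12.8 kb in H3.1K27M against 6.4 kb in H3.3K27M cells) and chromosome 4 from 150469801 (22.0 against 11.4 kb). These widths come from the same 2 lists that chose the members, so the contrast is a description. Selection limits H3.3K27M width near members. A region whose H3.3K27M peak reached over a further H3.1K27M peak would also not be counted, as it would not hold a single peak of each list. How much of the contrast comes from this selection was not tested.

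**Figure D5:**
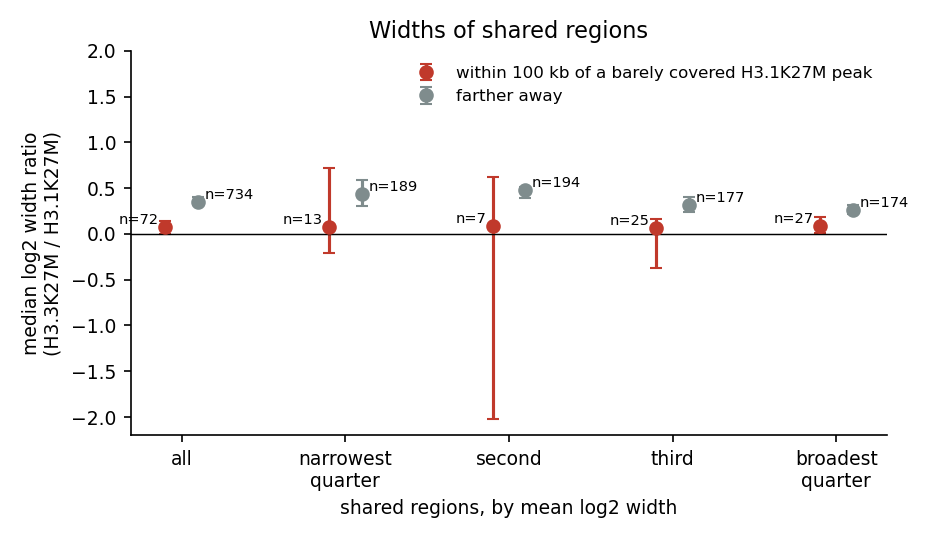
Median log2 of the peak width in H3.3K27M cells over that in H3.1K27M cells, in regions with a single peak of each list (vertical axis), for all regions and for 4 groups of nearly equal number by mean log2 width (horizontal axis); red, within 100 kb of a barely covered H3.1K27M peak, grey, farther away, with exact 95% intervals of the median and n regions. All 5 red medians lie between 0.06 and 0.09 and the grey ones between 0.26 and 0.47. The rule limits H3.3K27M width near members, which favours lower red medians in advance.

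The rule keeps H3.3K27M peaks from covering members, so few can reach from a member into its flanks. Peaks that lie wholly in the flanks are not limited by the rule. How much selection lowers the shares below was not tested. Within 10 kb of the members' edges, 2.36% of the sequence lay in H3.1K27M peaks and 1.07% in H3.3K27M peaks. Within 50 kb these shares were 3.70 and 2.68%, within 100 kb 3.28 and 2.78%, and within 500 kb 1.61 and 1.63%. Around the barely covered H3.3K27M peaks the H3.1K27M share was the lower one. It was 0.82% against 1.66% in H3.3K27M peaks within 10 kb, and 0.96% against 1.32% within 500 kb. Flanks of neighbouring peaks overlap, and the sequence in them was then counted for each. The same shares around shared peaks are not set beside these, because an H3.3K27M peak reaches into those flanks by selection.

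Members were found on 20 chromosomes, and on each of them the exact interval of their share of the H3.1K27M peaks held the overall 18.9%. The share was highest on chromosomes 16 (6 of 19 peaks, 31.6%, interval 12.6 to 56.6%), 8 (18 of 64, 28.1%, 17.6 to 40.8%) and 17 (14 of 54, 25.9%, 15.0 to 39.7%). It was lowest on chromosomes 10 (2 of 28, 7.14%, 0.877 to 23.5%), 19 (3 of 42, 7.14%, 1.5 to 19.5%) and 3 (2 of 26, 7.69%, 0.946 to 25.1%). On chromosome 10, 22 of 45 H3.3K27M peaks (48.9%) were barely covered. Chromosomes 2 and 5 held most members in number, 24 each. Towards the end of chromosome 8, from 112691001 onwards, 10 of 22 H3.1K27M peaks were members, 53.6 kb in all, and 3 of 16 H3.3K27M peaks were barely covered. The H3.1K27M list reached 128826199 there and the H3.3K27M list 128439399. This stretch was singled out after its values were seen.

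Members were somewhat commoner at the end of chromosomes that is distal to the centromere. Mouse chromosomes have their centromere at one end, where numbering starts. In the distal 25% of each chromosome's length 91 of 393 H3.1K27M peaks (23.2%, interval 19.1 to 27.6%) were members, against 108 of 660 (16.4%, 13.6 to 19.4%) in the rest, and without chromosome 8 the distal share was 21.9% (17.8 to 26.5%). The intervals of the distal 25% and of the rest overlap slightly. The distal share was above that of the rest on 12 chromosomes and below it on 8, and the difference was not tested. In the H3.3K27M list the distal share of barely covered peaks was 28.2%, against 30.9% in the rest. By Giemsa staining, which separates light bands rich in genes and in G and C from dark bands that are poorer in both, 115 of the 199 members (57.8%, 50.6 to 64.7%) had their centre in a light band, as had 454 of 854 shared peaks (53.2%, 49.8 to 56.6%) and 176 of 357 barely covered H3.3K27M peaks (49.3%, 44.0 to 54.6%). Light bands make up 40.9% of these chromosomes. The members' share of light bands did not stand clear of that of shared peaks.

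The lists give no height or p-value for a peak, and the depth of the libraries is unknown, so whether a member lacked H3K27me3 in H3.3K27M cells or fell under the limit of calling there was not tested. Running numbers of the H3.3K27M list skip in places, and 8 of the 199 members (4.02%) faced such a skip, among them the 3 of the run on chromosome 17, as did 35 of 854 shared peaks (4.10%).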

How the data were processed

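H3K27me3 chromatin immunoprecipitation from H3.1K27M and H3.3K27M mouse embryonic fibroblasts was analysed from 1 deposited peak list per group of 2 replicates. Samples of the other groups were not analysed here. Per the submitters' processing notes the authors aligned reads to mm9 with Bowtie 1.0.0 and used deepTools. No source used here gives the peak caller or its threshold. Each deposited list gives start, end and width in bp and no counts, with starts on a 200 bp grid, so the depth per sample is unknown.

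Intervals were read as BED and printed 1-based. Coverage is the percent of a peak's bases inside peaks of the other list, and distances are gaps between edges. GenomeInfoDb 1.38.1 and circlize 0.4.16 in R 4.3.3 gave mm9 chromosome lengths and Giemsa bands. Computation was in Python 3.11.15 (numpy 2.4.6, pandas 2.3.3, scipy 1.17.1) with functions tested on simulated data. Intervals are at 95% over peaks, Clopper-Pearson for shares and exact order-statistic for medians. No significance test was run, since no list has a replicate. Named regions are the 10 widest members, the 5 farthest from the H3.3K27M list, those nearest the 20% limit and runs of 3 or more. Others are said to be chosen after their values were seen. The members and rules were set with earlier results of these data known. Genes are not named and no sequence is shown, because the gene and promoter tables used here are for GRCm38.p6 and positions were not carried between builds.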

Additional observations from a re-analysis of the deposited data

How the results depend on the processing

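No paired analysis was possible because the replicates of a group share 1 list, and none could be left out. The number of members was 199 and lay between 165 (H3.1K27M peaks of 2 kb or wider only) and 216 (limit of 50%) under 8 other settings. Peaks of 1.999 kb were kept in the setting of 2 kb or wider, but were counted as under 2 kb in the width classes above. Leaving out peaks under 2 kb moved the median width of members from 3.2 to 3.6 kb, as it must. Counting shared regions within 500 kb of a member in place of 100 kb moved their median log2 width ratio from 0.08 to 0.15, against 0.37 for the others. Without the broadest of the 4 width groups the median of regions away from members moved from 0.35 to 0.40, and that near members was 0.07. The other 60 values for the members as a whole, the runs and the shared regions stayed within 1.5 times the count or within the interval of the median or share. Many of these could hardly differ. A limit of 10%, a limit of no overlap and H3.3K27M peaks widened by 1 kb all left the same 198 members. Only the partly covered peak on chromosome 12 dropped out, so the values under these settings repeat each other. Widening each H3.3K27M peak by 1 kb at both edges brought the partly covered peak on chromosome 12 to 31.4%, over the limit, and the 20 other regions named by the rule kept their side. All settings for the shared regions, the runs and the skipped numbers, and some for widths, for distances, for whether the nearest H3.3K27M peak was shared and for bands, were added after seeing the data. The alternative for start sites near peaks was not run, since no gene positions on mm9 were used here.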

Other observations

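Across the 20 chromosomes, the share of H3.1K27M peaks that were barely covered and the median log2 width ratio of shared regions had a Pearson r of -0.25 and a Spearman rho of -0.30, given as a description because both measures come from the same 2 lists and each chromosome's peaks share their libraries. Chromosome 16, with 31.6% members, had a median ratio of 0.47, and chromosome 15, with 21.6% members, had the lowest median ratio, 0.14.

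Skipped running numbers within the H3.1K27M list itself stood beside 11 of 199 members (5.53%, exact interval 2.79 to 9.68%) and 30 of 854 shared peaks (3.51%, 2.38 to 4.98%). The smallest gap between neighbouring H3.1K27M peaks was 1801 bp.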
